A study of Mus musculus with 12 samples.

Results

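Rod photoreceptors that received an expression vector for the kinase gene Csnk2a1 were compared directly with rods that received a short hairpin RNA (shRNA) against the same gene. The comparison used 6 of the 12 libraries of the series, namely pcDNA4c mCsnk2a1 1, 2 and 3 and shRNA mCsnk2a1 1, 2 and 3, chosen by their labels, and every difference below is vector minus shRNA. The other 6 libraries, shRNA Control 1 to 3 and pcDNA4c Control 1 to 3, enter below as a background for the change of vector. All 4 groups came from mouse retina that had been electroporated, a treatment that carries plasmid DNA into cells with electric pulses, and taken at postnatal day 8. GFP-positive rods were picked by hand, a library held the RNA of 50 to 100 cells, prepared with a stranded total RNA kit for very small inputs, and 3 independent RNA samples were prepared per treatment. Strain, the promoter of each plasmid, the content of the control plasmids and the number of animals are not given in the sources used here, so a p-value reflects only how far these samples spread, which may be technical. The 2 groups differ in the plasmid as well as in the intended Csnk2a1 level, and the 2 differences cannot be told apart within the 6 libraries.

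Protein kinase CK2 is a serine/threonine kinase made of catalytic alpha subunits, encoded by Csnk2a1 and Csnk2a2, and a regulatory beta subunit, encoded by Csnk2b. It is active without a second messenger and phosphorylates a wide range of nuclear and cytoplasmic proteins. The series is concerned with CK2 and the genes under NRL, the leucine zipper factor that directs photoreceptor precursors to the rod fate and, with the homeodomain factor CRX and the nuclear receptor NR2E3, activates rod genes.

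Summed estimated counts ran from 2840426 to 3567121 in the shRNA libraries and from 2296056 to 3551328 in the vector libraries. After thinning to 1609099 counts, 18129 ± 1664 genes had a count with the shRNA and 16649 ± 1575 with the vector (SD, n = 3 each; two-sided exact permutation p = 0.4, where 0.1 is the smallest p that 3 against 3 libraries allow). The mitochondrial share of counts was 10.8 ± 0.610% with the shRNA and 11.3 ± 1.63% with the vector (exact permutation p = 0.6). Libraries of 1 group were no more alike than libraries of different groups: over 20267 genes, rank correlations were 0.561 to 0.582 within the shRNA group, 0.522 to 0.590 within the vector group and 0.520 to 0.603 between the groups. The library pcDNA4c mCsnk2a1 1 stood apart, with rank correlations of 0.520 to 0.543 to the other 5. It held 707 CPM (counts scaled to a common library total) of Mki67, a marker of dividing cells, against 0.627 and 0 in the other vector libraries and 28.2 to 157 with the shRNA. List medians that move by over 1.5 times without it are given both ways, beside a median of all tested genes that moves from -0.07 to -0.25.

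Csnk2a1 itself was read as a check on the labels. The gene lies on chromosome 2 from 152226839 to 152281852 (GRCm38, also named mm10). Its level was 12.0, 22.2 and 36.0 CPM (TMM-scaled, that is, after a composition correction between libraries) in the shRNA libraries and 49.9, 145 and 122 CPM in the vector libraries. The groups did not overlap, and the lowest vector library was close to the highest shRNA library. The difference was 2.17 on the log2 scale (SE 0.90), with an unadjusted exact permutation p of 0.1. Adjusted over all genes with the Benjamini-Hochberg method, the p of edgeR's quasi-likelihood test was 0.448, so Csnk2a1 did not pass the threshold of 0.05. In the control libraries the same change of vector gave 0.08 (44.2 ± 31.3 CPM in shRNA Control and 46.6 ± 34.7 CPM in pcDNA4c Control; SD, n = 3 each). Each Csnk2a1 group overlapped its own control. The shRNA Control libraries were at 66.9, 57.2 and 8.51 CPM and the pcDNA4c Control libraries at 86.6, 25.0 and 28.3 CPM. Transcripts of the plasmid may be counted in the vector libraries. Csnk2a1-201, the transcript with the full coding sequence, stood at 1.13, 1.49 and 6.36 TPM (transcript abundance scaled to a common total) with the shRNA and at 2.52, 6.85 and 5.67 TPM with the vector, and here the groups overlapped (exact permutation p = 0.3). Of the partner subunits, Csnk2a2 differed by -0.36 (SE 1.24) and Csnk2b by -0.74 (SE 0.70), and the libraries of both genes overlapped between groups.

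**Figure D1:**
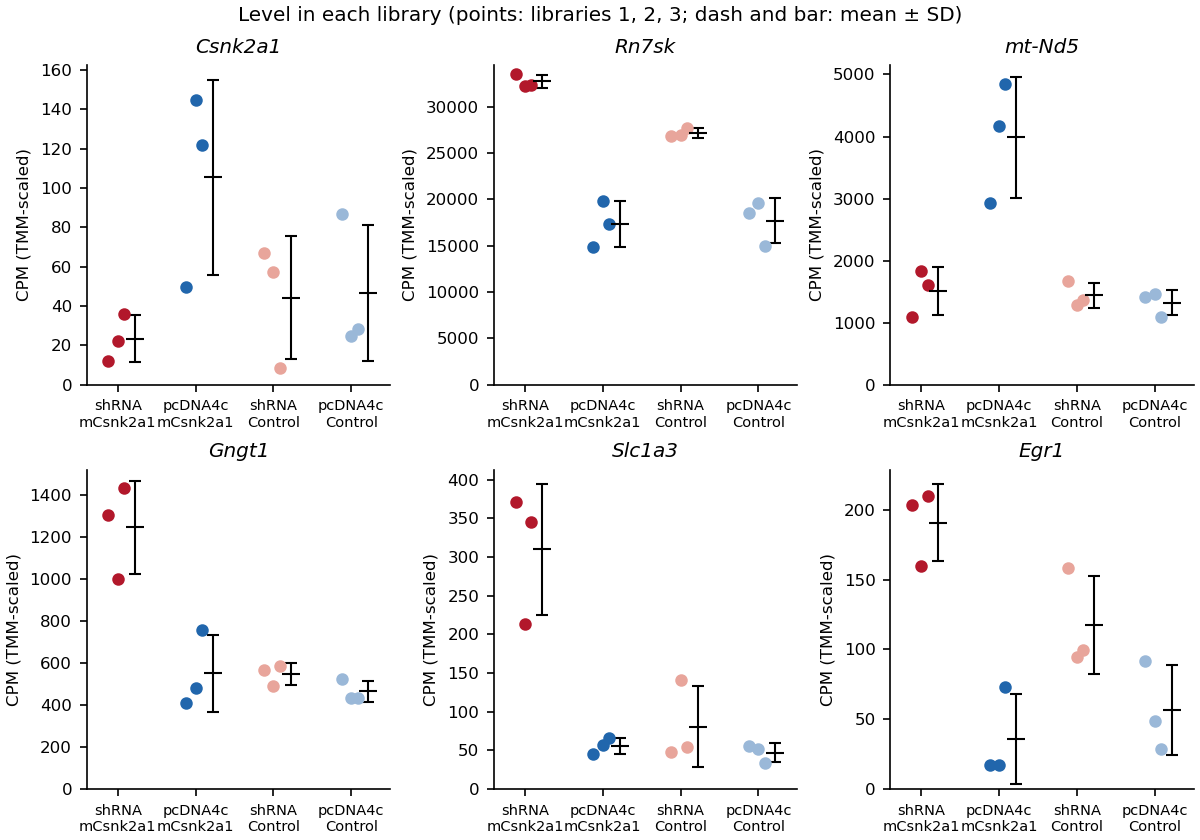
TMM-scaled CPM (vertical axis, linear, from 0) of 6 genes in all 12 libraries, by group. Points are libraries, dashes and bars are mean ± SD (n = 3). Csnk2a1 is at 12.0 to 36.0 CPM with its shRNA and 49.9 to 145 CPM with its vector, and Rn7sk is at 32273 to 33555 CPM against 14882 to 19880 CPM.

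Across the transcriptome, 1 of 20267 tested genes passed, which is 0.00493% of them, and it was lower with the vector. This gene was Rn7sk, which encodes 7SK, an abundant noncoding RNA made by RNA polymerase III. 7SK holds the elongation kinase P-TEFb (Cdk9 with a T-type cyclin) in an inactive complex together with HEXIM proteins, and LARP7 and MEPCE protect the RNA. Its 5′ end folds into a hairpin whose GATC repeats (GAUC in the RNA) are known as contacts for HEXIM1. The first 120 bases of the 331-base transcript are shown since this is the RNA that passed, with the GATC repeats in capitals (chr9:78175303-78175633, minus strand, GRCm38, from the GENCODE M21 transcripts).
Rn7sk: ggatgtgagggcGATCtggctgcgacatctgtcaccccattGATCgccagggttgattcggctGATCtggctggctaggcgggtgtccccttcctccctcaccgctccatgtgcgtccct
The 3 copies of GATC, a word that reads the same on both strands, are all those in the transcript. Among the first 120 bases of 137364 transcripts, 27.6% hold GATC at least once and 0.52% hold it at least 3 times.

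Rn7sk was at 33555, 32273 and 32401 CPM in the shRNA libraries and at 14882, 19880 and 17310 CPM in the vector libraries. Each vector library lay far below each shRNA library, and the spread within a group was small. The log2 difference was -0.92 (SE 0.12; adjusted p = 0.00901, edgeR). The control vectors differed in the same direction, with 27166 ± 521 CPM in shRNA Control and 17725 ± 2414 CPM in pcDNA4c Control (SD, n = 3 each), a log2 difference of -0.62 that did not pass (adjusted p = 0.0881). The gap between the -0.92 and the -0.62 was -0.30 and did not pass either (adjusted p = 0.667), so the part of the Rn7sk difference that goes with the vector alone cannot be told apart here. The log2 difference stayed between -1.02 and -0.77 in 16 alternatives, and the call was lost in 7 of them. They were the fit of the 6 compared libraries alone (adjusted p = 0.874, and 0.379 with replicate numbers as a block), the low-count filter on those 6 (adjusted p = 0.0838), DESeq2 (adjusted p = 0.0617), and the fits without pcDNA4c mCsnk2a1 3 (adjusted p = 0.0517), shRNA mCsnk2a1 2 (adjusted p = 0.0680) or shRNA mCsnk2a1 3 (adjusted p = 0.103). Reads of Rn7sk can also be shared with the many near-identical copies of 7SK in the mouse genome. The protein partners, added after Rn7sk was seen to pass, did not pass: Hexim1 differed by -0.23 (SE 1.01), Larp7 by 1.13 (SE 1.37), Cdk9 by -0.37 (SE 1.11) and Ccnt1 by -0.52 (SE 0.61). Mepce differed by -1.04 (SE 1.50), Ccnt2 by 0.03 (SE 0.77) and Hexim2 by -1.71 (SE 2.13). Only Hexim2 was without overlap, at 18.8, 12.3 and 21.4 CPM with the shRNA and at 5.25, 0 and 10.7 CPM with the vector. Such a pattern was held by 5.86% of all tested genes. Between the control vectors Hexim2 differed by -3.36 (SE 2.32).

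Other structured RNAs lay mostly on the same side. Of 10 small nuclear and cytoplasmic RNAs, all of which passed the low-count filter, 9 were lower with the vector and 1 was higher, 1 of them (Rn7sk) passed, and their median log2 difference was -0.48 (control vectors 0.16), against -0.07 over all tested genes. The 9 include 7SL as 2 entries with the same values. Without pcDNA4c mCsnk2a1 1 9 were again lower and 1 higher, but the median was -0.28, close to the -0.25 of all genes. In 5 of the 10 the vector libraries all lay below the shRNA libraries, a pattern held by 5.86% of all tested genes. These 5 also include 7SL as 2 entries. Rpph1, the RNA of ribonuclease P, which trims transfer RNA precursors, was at 4332, 4247 and 4662 CPM with the shRNA and at 2634, 2983 and 2860 CPM with the vector (log2 -0.64, SE 0.19, adjusted p = 0.428). It differed by -0.14 between the control vectors. Rny3, a Y RNA that binds the Ro60 protein, differed by -0.82 (SE 0.27; adjusted p = 0.448). Rmrp, the RNA of ribonuclease MRP, which takes part in ribosomal RNA processing, differed by -0.30 (SE 0.29) with overlapping libraries. Rnu12 and Rnu11, small nuclear RNAs of the minor spliceosome, differed by -0.53 and -0.29, and Rnu1b1, a U1 RNA of the major spliceosome, by 0.71 at 1.23 to 14.4 CPM.

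Rn7s1 and Rn7s2 encode 7SL, the RNA of the signal recognition particle that guides secretory proteins to the membrane. Both carried identical values in the deposited table, so they count as 1 measurement. Their level was 31503 to 36632 CPM with the shRNA and 20768 to 28582 CPM with the vector, with no overlap (log2 -0.45, SE 0.13, adjusted p = 0.421). Between the control vectors 7SL was lower by a larger amount, -1.18, and that difference passed (adjusted p = 0.000101). The 7SK and 7SL genes together took 9.21 ± 0.418% of counts with the shRNA and 6.18 ± 0.672% with the vector (SD, n = 3 each; exact permutation p = 0.1), and protein-coding genes took 67.1 ± 2.50% and 70.9 ± 1.07% (exact permutation p = 0.1).

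**Figure D2:**
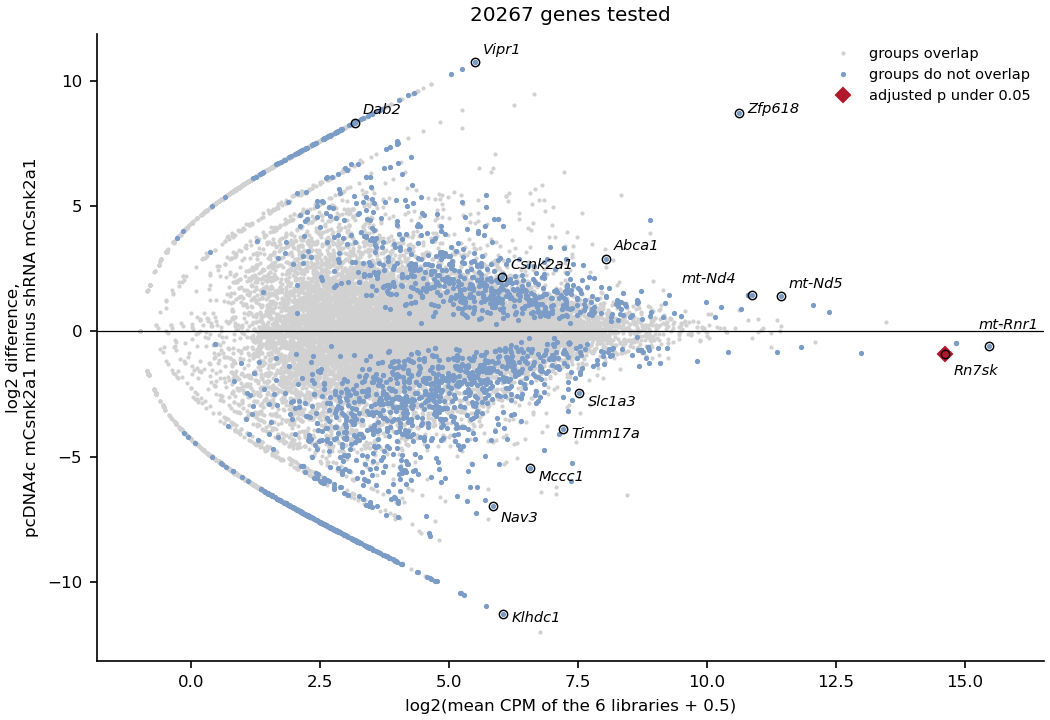
Log2 difference (vertical axis, vector minus shRNA) against log2 mean CPM of the 6 libraries (horizontal axis) for 20267 tested genes. Blue points are genes whose groups do not overlap, circles mark named genes, the curved outer strands are genes with no count in 1 group, and the red diamond, Rn7sk at -0.92, is the single gene that passed.

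At an unadjusted p under 0.05 stood 2244 genes, 934 higher and 1310 lower with the vector. Groups of 3 libraries did not overlap for 716 genes that were higher with the vector (3.53% of those tested) and for 1187 that were lower (5.86%). In 1208 genes the vector libraries held no count and the shRNA libraries together held more than 3, and in 775 genes it was the reverse. The biological coefficient of variation was 1.26 over the 12 libraries, which is a spread larger than the mean. Other tools gave other counts from the same table: DESeq2 passed 472 genes (174 higher, 298 lower) and limma voom 28 (13 higher, 15 lower).

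Among the genes that were higher with the vector without overlap and had the smallest p, predicted genes left aside, 4 of 10 were messenger RNAs of the mitochondrial genome, which encodes subunits of the respiratory chain and of ATP synthase. mt-Nd5, a subunit of complex I, was at 1090, 1837 and 1599 CPM with the shRNA and at 2935, 4167 and 4851 CPM with the vector. All 3 vector libraries lay above the 3 shRNA libraries. The log2 difference was 1.40 (SE 0.26; adjusted p = 0.271), against -0.12 between the control vectors. mt-Nd4, another complex I subunit, was at 941, 1172 and 919 CPM and at 1868, 2760 and 3609 CPM (log2 1.44, SE 0.28, adjusted p = 0.271). mt-Cytb, of complex III, differed by 1.04 (SE 0.23) and mt-Co1, of complex IV, by 0.78 (SE 0.20). The 4 genes did not pass in the fit of all libraries, but mt-Nd5, mt-Nd4 and mt-Cytb passed without pcDNA4c mCsnk2a1 1 (adjusted p = 0.0236 each, with log2 differences of 1.62, 1.70 and 1.29).

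Of 13 protein-coding mitochondrial genes listed, 12 passed the filter, 11 of them were higher with the vector and 1, mt-Co3, was lower (log2 -0.19). None passed, the median log2 difference was 0.91 against -0.07 over all genes, and 8 of the 12 had vector libraries all above the shRNA libraries, beside 3.53% of all genes. Summed over the list, the level was 12412 to 15294 CPM with the shRNA and 22099 to 31152 CPM with the vector. Between the control vectors the median was -0.21. mt-Nd2, of complex I, was at 1199, 1213 and 987 CPM and at 1392, 2410 and 2543 CPM (log2 0.90, SE 0.28, adjusted p = 0.432), and mt-Nd6, the one messenger of the list on the light strand, differed by 1.57 (SE 0.55). Values of mt-Co2 (1.88 to 933 CPM) and mt-Atp6 (2.63 to 3039 CPM) jumped between libraries of the same group, and reads of these genes can be shared with nuclear copies of mitochondrial DNA, so their differences of 0.93 (SE 1.93) and 0.85 (SE 1.03) are uncertain. Without pcDNA4c mCsnk2a1 1, 10 of the 12 were higher and the median was 1.07.

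The ribosomal RNAs of the mitochondrion did not follow its messengers. mt-Rnr1, the 12S RNA of the small subunit, was at 52073, 52334 and 58473 CPM with the shRNA and at 28576, 38510 and 42617 CPM with the vector, with no overlap (log2 -0.57, SE 0.12, adjusted p = 0.299). The control vectors differed by -0.78, and that difference passed (adjusted p = 0.00962). mt-Rnr2, the 16S RNA of the large subunit, differed by 0.25 (SE 0.13) with overlapping libraries. The 2 ribosomal RNAs made up most of the mitochondrial share of counts, 9.46 ± 0.722% of all counts with the shRNA and 8.73 ± 1.32% with the vector (SD, n = 3 each; exact permutation p = 0.5).

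Transcripts of nuclear genes for oxidative phosphorylation lay on the other side: of 76 members, 19 were higher and 57 lower, none passed, and the median was -0.48 (control vectors -0.23). In 14 of the 76 the vector libraries all lay below the shRNA libraries (5.86% of all genes), and in 3 all above (3.53% of all genes). Without pcDNA4c mCsnk2a1 1 the median was -0.31, with 26 higher and 50 lower. Uqcrh, the hinge protein of complex III, differed by -1.80 (SE 0.69).

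Glycolysis, the breakdown of glucose to pyruvate on which photoreceptors rely heavily, gave a median above 0 as well. Of 20 genes, 16 were higher and 4 lower with the vector, none passed, and the median was 0.67 (control vectors -0.29). Without overlap were 6 that were higher and 1 that was lower, beside 3.53% and 5.86% of all genes. Slc2a1, the glucose transporter GLUT1, was at 124, 48.3 and 79.2 CPM with the shRNA and at 300, 210 and 583 CPM with the vector (log2 2.12, SE 0.57, adjusted p = 0.381). Gpi1, which turns glucose 6-phosphate into fructose 6-phosphate, differed by 1.75 (SE 0.49), against -1.45 between the control vectors, and Pgam1, a phosphoglycerate mutase, by 1.42 (SE 0.49). Pfkl and Pfkp, subunits of phosphofructokinase, differed by 1.63 and 1.57. Smaller values came from Pkm (0.69), Ldha (0.60) and Gapdh (0.50), the pyruvate kinase, the lactate dehydrogenase A subunit and glyceraldehyde 3-phosphate dehydrogenase. Ldhb, the B subunit of lactate dehydrogenase, went the other way, from 31.9, 68.3 and 19.3 CPM to 0, 8.77 and 5.04 CPM (log2 -3.09, SE 1.31).

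**Figure D3:**
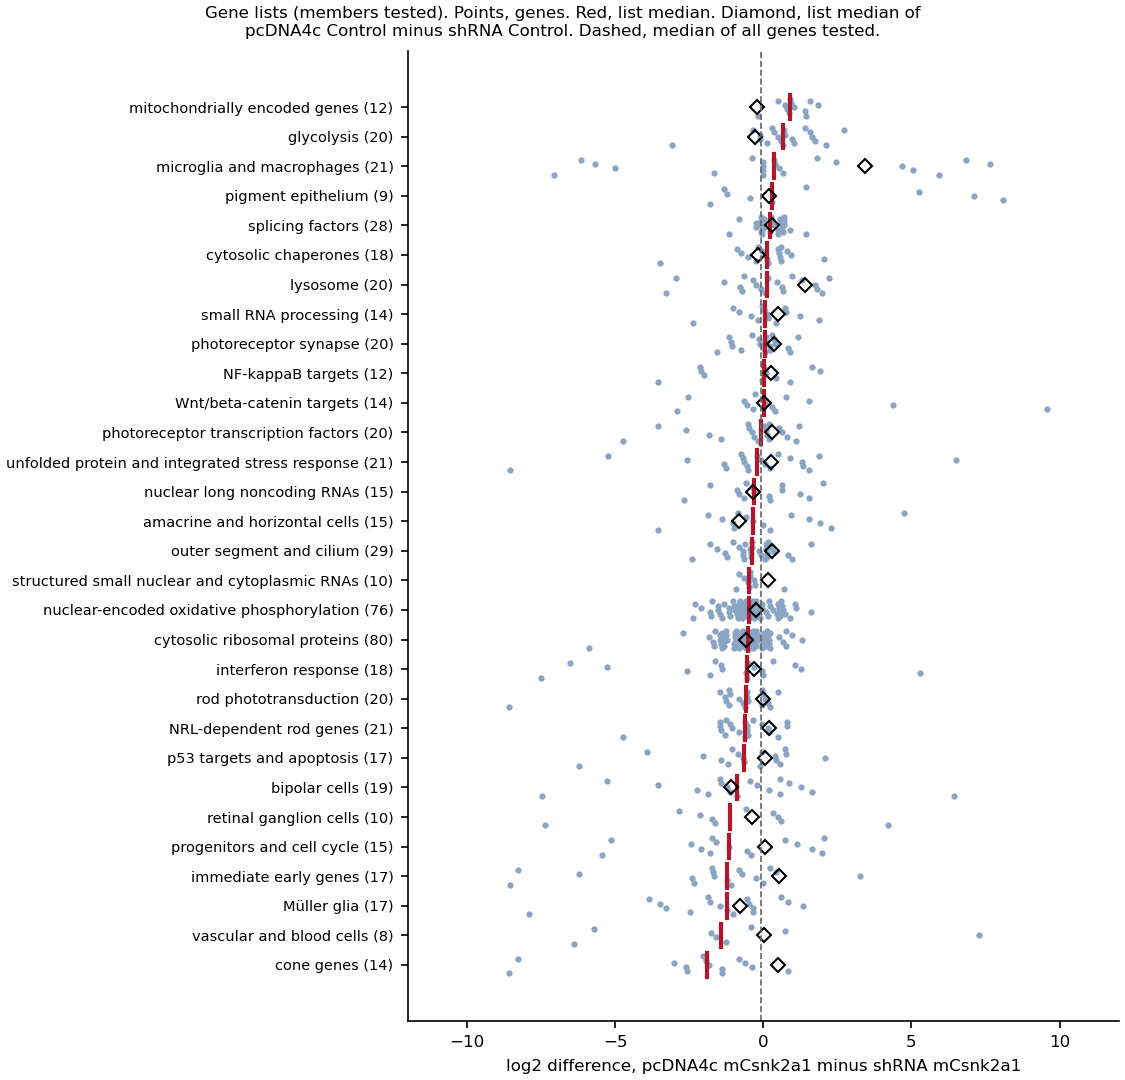
Log2 difference, vector minus shRNA (horizontal axis), of every tested member (points) of 30 gene lists with at least 8 tested members, ordered by list median (red bars). Mitochondrially encoded genes have the highest median, 0.91, and cone genes the lowest, -1.90, and the open diamonds show the list medians of pcDNA4c Control minus shRNA Control.

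The rod factors at the centre of the series showed no difference beyond the spread between libraries. Nrl was at 228, 282 and 816 CPM with the shRNA and at 101, 386 and 677 CPM with the vector (log2 -0.19, SE 0.58). Crx was at 860, 1220 and 1093 CPM and at 570, 805 and 1041 CPM (log2 -0.39, SE 0.31). Nr2e3 was at 747, 594 and 641 CPM and at 318, 1096 and 823 CPM (log2 0.17, SE 0.41). The libraries of the 2 groups overlapped for all 3 genes, and the signs for Nrl and Nr2e3 turned when single libraries were left out.

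Genes of the rod phototransduction cascade, which turns photon capture into closure of cGMP-gated channels, lay mostly on the lower side. Their presence in all 6 libraries also checks the label of the cells: the summed level of the list was 13949 to 17155 CPM with the shRNA and 6436 to 13643 CPM with the vector. Of 21 genes listed, 20 passed the filter, 4 were higher and 16 lower, none passed, and the median was -0.60 (control vectors -0.01). In 7 of the 20 the vector libraries all lay below the shRNA libraries, beside 5.86% of all genes. Fewer rod cells and less RNA per cell cannot be told apart in such libraries. Without pcDNA4c mCsnk2a1 1, the library with the lowest sum, 7 were higher and 13 lower, and the median was -0.35 against -0.25 over all genes.

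Early in the cascade, the 3 subunits of rod transducin, the G protein of the light response, did not give 1 pattern. Gnat1, the alpha subunit, was at 287, 303 and 373 CPM and at 149, 154 and 137 CPM, with no overlap (log2 -1.13, SE 0.48, adjusted p = 0.448). Gngt1, the gamma subunit, was at 1302, 1001 and 1432 CPM and at 409, 483 and 759 CPM, with no overlap (log2 -1.18, SE 0.32, adjusted p = 0.395). Gnb1, the beta subunit, which other G proteins share, was at 880, 1387 and 1418 CPM and at 683, 1714 and 1670 CPM (log2 0.14, SE 0.35). The shRNA Control libraries held 548 ± 52.0 CPM of Gngt1 and the pcDNA4c Control libraries 464 ± 51.0 CPM (SD, n = 3 each). For Gngt1, then, the high level was that of the shRNA mCsnk2a1 libraries. Gnat1 was at 97.1 ± 14.1 CPM in shRNA Control and 81.7 ± 32.9 CPM in pcDNA4c Control, below both Csnk2a1 groups.

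Downstream, Pde6a and Pde6b, the catalytic subunits of the cGMP phosphodiesterase, differed by -1.45 (SE 0.59) and -0.04 (SE 0.39). Slc24a1, the rod cation exchanger, was at 94.3, 146 and 147 CPM and at 34.6, 51.7 and 73.2 CPM (log2 -1.28, SE 0.73). For the shutoff proteins, Sag, the rod arrestin, was at 3453, 3620 and 3032 CPM and at 1023, 2364 and 2265 CPM, with no overlap (log2 -0.84, SE 0.29, adjusted p = 0.448). Rcvrn, the calcium sensor recoverin, was at 264, 373 and 460 CPM and at 110, 185 and 149 CPM, with no overlap (log2 -1.30, SE 0.48), and it differed by -1.02 between the control vectors. Guca1a, which encodes the guanylate cyclase activator GCAP1, was at 20.7, 12.6 and 27.8 CPM with the shRNA and without a count with the vector, at least 56.3-fold lower against a floor of 3 counts over the group. Its control libraries held a mean of 0.691 CPM (shRNA) and 0.554 CPM (pcDNA4c), and a second annotated entry of the same name carried identical values.

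Genes known to depend on NRL, a list that shares members with the cascade, gave 5 higher and 16 lower of 21, none passed, and the median was -0.61 (control vectors 0.18). Without overlap 5 were lower and none was higher, beside 5.86% and 3.53% of all genes. Leaving out pcDNA4c mCsnk2a1 1 gave 6 higher and 15 lower, and a median of -0.44 against -0.25 over all genes. Mef2c, a MADS-box factor, was at 119, 1.85 and 12.5 CPM and at 4.37, 0 and 0.671 CPM (log2 -4.74, SE 1.40, adjusted p = 0.428) and rested largely on 1 shRNA library. Between the control vectors Mef2c differed in the other direction, by 4.92 (SE 1.39). The gap of -9.66 did not pass (adjusted p = 0.209, edgeR interaction). Mef2d, its relative that works with CRX in photoreceptors, was at 122, 193 and 264 CPM and at 388, 593 and 339 CPM, with no overlap (log2 1.19, SE 0.53). The 20 photoreceptor transcription factors gave 10 higher and 10 lower with a median of -0.09. The 20 genes of the photoreceptor synapse gave 11 and 9 with a median of 0.07, and in none of them were the groups without overlap. Without pcDNA4c mCsnk2a1 1 the medians of these lists were 0.05 and 0.32. Outer segment and cilium genes gave 11 higher and 18 lower of 29 (median -0.40), and 13 higher and 16 lower without pcDNA4c mCsnk2a1 1 (median -0.08, above that of all genes). Cep290, a protein of the connecting cilium, differed by -0.83 (SE 0.38), and Kif3a, a motor of intraflagellar transport, by 1.61 (SE 0.76).

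Markers of other retinal cells were read as a check on the picked cells. Cone genes had the lowest median of the lists, -1.90 (control vectors 0.49), with 1 higher and 13 lower of 14 tested and none passing. In 5 of the 14 the vector libraries all lay below the shRNA libraries, beside 5.86% of all genes. Their summed level was 577 to 983 CPM with the shRNA and 336 to 548 CPM with the vector. Opn1sw, the short-wave cone opsin, was at 12.4, 28.9 and 7.84 CPM with the shRNA and without a count with the vector (at least 48.2-fold lower, and 28.4-fold without shRNA mCsnk2a1 2), and its control libraries were at 0 with the shRNA and 22.6 CPM on average with pcDNA4c. Thrb, the thyroid hormone receptor of cones, differed by -1.85 (SE 0.75), Cngb3, a cone channel subunit, by -3.03 (SE 1.44), and Arr3, cone arrestin, by -0.61 (SE 2.33).

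Müller glia, the radial glia that support retinal neurons, gave 3 higher and 14 lower of 17 tested markers, none passed, and the median was -1.23 (control vectors -0.78). In 9 of the 17 the vector libraries all lay below the shRNA libraries, beside 5.86% of all genes, and the summed level was 1605 to 2468 CPM with the shRNA and 827 to 924 CPM with the vector. Slc1a3, the glial glutamate transporter GLAST, was at 371, 213 and 346 CPM and at 45.5, 56.4 and 66.1 CPM (log2 -2.47, SE 0.60, adjusted p = 0.333). Its control libraries held 80.7 ± 51.9 CPM (shRNA) and 47.1 ± 11.8 CPM (pcDNA4c), so the level with the Csnk2a1 shRNA was the high one. Crym, a crystallin-related protein, was at 96.2, 56.9 and 220 CPM and at 17.1, 1.57 and 7.05 CPM (log2 -3.86, SE 1.06), and Gpr37, an orphan receptor, differed by -1.88 (SE 0.75). Glul, glutamine synthetase, overlapped between groups (log2 -0.47, SE 0.71), and Rlbp1, a carrier of retinaldehyde, came close to it at 120, 186 and 114 CPM and at 112, 36.7 and 30.9 CPM (log2 -1.23, SE 0.77). The part of glial RNA in the lower rod and cone values was not tested.

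Further lists held members on both sides or few counts. Bipolar cell markers gave 7 higher and 12 lower of 19 (median -0.89, control vectors -1.08), and the bipolar gene Lrtm1 differed by -5.28 (SE 1.46). Microglia and macrophage markers had a median of 3.43 between the control vectors. Between the compared groups these markers gave 11 higher and 6 lower of 21 tested, 13 of them without a count in a group. They summed to 133 to 227 CPM with the shRNA and 222 to 370 CPM with the vector. Their defining genes Tyrobp, C1qa, Ctss and Lyz2 held no count in the 6 libraries, while Laptm5 (0, 0 and 0 CPM against 5.25, 0 and 26.5 CPM) and the receptor Csf1r (1.50, 0 and 0 CPM against 8.75, 31.3 and 1.01 CPM) held a few. Other genes of the list held counts in 1 shRNA library alone, such as C1qb (21.4 CPM in replicate 1) and Spp1 (7.69 CPM in replicate 2). Progenitor and cell cycle genes gave 5 higher and 10 lower of 15 (median -1.16, control vectors 0.05). They summed to 363 to 435 CPM with the shRNA and 141 to 869 CPM with the vector, the top value being that of pcDNA4c mCsnk2a1 1. The bipolar and progenitor medians stayed below 0 in 16 alternatives (-1.02 to -0.24 and -1.64 to -0.54). Prox1, a homeodomain factor of horizontal and other interneurons, was at 170, 399 and 305 CPM with the shRNA and at 307, 146 and 420 CPM with the vector, a log2 difference of -0.00 (SE 0.55).

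Immediate early genes, which respond within minutes to activity or handling, were lower with the vector in 14 of 17 and higher in 3, none passed, and the median was -1.22 (control vectors 0.52). Their summed level was 770 to 779 CPM with the shRNA and 355 to 534 CPM with the vector. In 5 of the 17 the vector libraries all lay below the shRNA libraries, beside 5.86% of all genes. Egr1, a zinc finger factor of this group, was at 203, 159 and 210 CPM and at 17.5, 17.2 and 72.8 CPM, with no overlap (log2 -2.41, SE 0.70, adjusted p = 0.428). Unlike the list median, Egr1 was also lower between the control vectors, by -1.06 (SE 0.68). Npas4, a neuronal activity factor, was at 10.1, 35.7 and 13.9 CPM with the shRNA and without a count with the vector (at least 58.9-fold lower, and 34.0-fold without shRNA mCsnk2a1 2), while Fos and Junb, subunits of AP-1, overlapped between groups (log2 -1.08, SE 1.04, and -2.35, SE 1.78).

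Cytosolic ribosomal protein genes gave 16 higher and 64 lower of 80, none passed, and the median was -0.53. The control vectors gave -0.60 for the same list. In 14 the vector libraries all lay below the shRNA libraries (5.86% of all genes), and in 1 all above (3.53% of all genes). Rpl23 differed by -1.71 (SE 0.55) and Rps14 by -1.41 (SE 0.54), beside -1.49 and -1.40 between the control vectors. Rpl26 was at 408, 411 and 386 CPM and at 192, 301 and 255 CPM (log2 -0.69, SE 0.62). Reads of these genes can be shared with their processed pseudogenes.

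Among noncoding RNAs of the nucleus, Malat1, an abundant RNA of nuclear speckles, was at 7040, 13516 and 11075 CPM with the shRNA and at 3623, 6646 and 6958 CPM with the vector (log2 -0.88, SE 0.26, adjusted p = 0.429). The control vectors differed in the other direction, by 0.95. Xist, the RNA that coats the inactive X chromosome, was at 84.9, 287 and 137 CPM and at 309, 654 and 514 CPM (log2 1.54, SE 0.45), with 1.22 between the control vectors. The small RNA processing genes, through which a hairpin RNA is cut and loaded, gave 8 higher and 6 lower of 14 with a median of 0.07 (0.36 without pcDNA4c mCsnk2a1 1). Of the Argonaute genes, Ago2 was at 33.8, 25.2 and 126 CPM and at 150, 201 and 81.9 CPM (log2 1.23, SE 0.84), and Ago3 at 450, 329 and 156 CPM and at 6.12, 10.7 and 164 CPM (log2 -2.37, SE 0.95).

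The remaining lists are given by their counts, and none of their members passed. Amacrine and horizontal cell markers gave 6 higher and 9 lower of 15 (median -0.34), ganglion cell markers 4 and 6 of 10 (median -1.12), pigment epithelium 5 and 4 of 9 (median 0.30), and vascular and blood cell genes 2 and 6 of 8 (median -1.43). The ganglion cell transporter Slc17a6 was at 45.1, 7.39 and 41.0 CPM and at 0.437, 0 and 0 CPM, and the vascular receptor Kdr differed by -1.59 (SE 0.71). Lysosomal genes gave 11 and 9 of 20 (median 0.11), against a median of 1.42 between the control vectors. Interferon response genes gave 4 and 13 of 18 (median -0.57), p53 targets and apoptosis genes 6 and 11 of 17 (median -0.65), and genes of the unfolded protein and integrated stress response 9 and 12 of 21 (median -0.20). Cytosolic chaperones gave 11 and 7 of 18 (median 0.13), with the HSP90 gene Hsp90ab1 at 0.59 (SE 0.34). Wnt targets gave 7 and 7 of 14 and NF-kappaB targets 6 and 6 of 12, each with a median of 0.02. Splicing factors gave 18 and 10 of 28 (median 0.23), with Msi1, an RNA-binding protein that promotes photoreceptor exons, at 0.58 (SE 0.37), and nuclear long noncoding RNAs gave 7 and 8 of 15 (median -0.31). Without pcDNA4c mCsnk2a1 1 the medians were -0.15 for amacrine and horizontal cells, 0 for pigment epithelium, -1.14 for interferon response, -0.28 for p53 targets, -0.09 for the stress response, 0.40 for chaperones, 0.37 for Wnt targets, 0.01 for NF-kappaB targets, 0.39 for splicing factors and -0.08 for the noncoding RNAs. Several of these medians rested on single libraries. That of p53 targets ran from -0.67 to 0.21 with 1 library left out (0.21 without shRNA mCsnk2a1 3), that of interferon response from -1.14 to -0.06 (-0.06 without shRNA mCsnk2a1 1) and that of pigment epithelium from -0.75 to 4.71 (-0.75 without pcDNA4c mCsnk2a1 3, 4.71 without shRNA mCsnk2a1 1). The summed level of pigment epithelium genes went against its median, at 232 to 264 CPM with the shRNA and 115 to 217 CPM with the vector.

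Of the genes outside these lists, those with the smallest p among genes without overlap were in part without a count in 1 group. Dab2, an adaptor of clathrin-coated vesicles, had no count with the shRNA and 30.2, 15.7 and 5.04 CPM with the vector (at least 46.0-fold higher, and 30.6-fold without pcDNA4c mCsnk2a1 1; adjusted p = 0.271). Its control libraries held 67.7 ± 38.1 CPM and 63.1 ± 15.9 CPM, so the means of both Csnk2a1 groups lay below those of the controls. Vipr1, a receptor for vasoactive intestinal peptide, was without a count with the shRNA and at 29.7, 151 and 87.3 CPM with the vector (at least 279-fold higher, and 181-fold without pcDNA4c mCsnk2a1 2), and the chemokine gene Ccl9 without a count and at 14.9, 7.21 and 171 CPM (at least 195-fold higher, but 30.2-fold without pcDNA4c mCsnk2a1 3). Zbtb18, a zinc finger repressor, was at 33.4, 16.3 and 59.2 CPM and at 283, 399 and 125 CPM (log2 2.89, SE 0.71). Zfp618 differed by 8.73 (SE 2.12), but 1 vector library, replicate 2, held 9368 CPM of it and the others 38.1 and 25.8 CPM, and the difference was 2.10 without that library. Abca1, the cholesterol exporter, was at 87.1, 51.1 and 46.7 CPM and at 154, 260 and 972 CPM (log2 2.91, SE 0.62), and it differed by 3.46 between the control vectors, where it passed (adjusted p = 0.0437).

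On the lower side, Mccc1, a subunit of methylcrotonyl-CoA carboxylase in leucine breakdown, was at 227, 116 and 211 CPM with the shRNA and at 7.00, 2.51 and 3.02 CPM with the vector (log2 -5.46, SE 1.15, adjusted p = 0.299). Timm17a, a subunit of the mitochondrial import channel, was at 380, 142 and 305 CPM and at 23.6, 17.5 and 14.1 CPM (log2 -3.90, SE 0.84), and the control vectors differed by a similar -3.27. Nckap5 was at 114, 201 and 147 CPM and at 18.4, 11.0 and 9.73 CPM (log2 -3.56, SE 0.77), with -0.02 between the control vectors. Nav3, a neuron navigator protein, was at 24.8, 241 and 72.0 CPM and at 1.31, 0.313 and 1.01 CPM (log2 -6.95, SE 1.46). In 4 further genes of this set the vector libraries held no count: Klhdc1 (at least 341-fold lower, but 34.5-fold without shRNA mCsnk2a1 1, which held 368 CPM), Prelid3b (at least 215-fold lower), Etaa1, a replication stress protein (at least 85.7-fold lower), and Iscu, the scaffold of iron-sulfur cluster assembly (at least 82.5-fold lower). Iscu was at 35.7, 29.2 and 23.2 CPM with the shRNA.

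A set of 3 identical annotated genes, Gm24245, Gm23935 and Gm24270, came nearest to passing among the short RNAs on the higher side; they were singled out after their values were seen. The annotation calls them microRNA genes, at chr4:139338304-139338360 (plus strand), chr16:11144125-11144181 (plus strand) and chr9:56223715-56223771 (minus strand) on GRCm38. Their transcripts have the same 57 bases, shown because identical sequence makes their reads inseparable.
Gm24245: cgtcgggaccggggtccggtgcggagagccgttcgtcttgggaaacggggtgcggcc
The 3 genes carried identical values, 1470, 580 and 801 CPM with the shRNA and 3486, 1978 and 2289 CPM with the vector, with no overlap (log2 1.44, SE 0.30, adjusted p = 0.299). They count as 1 measurement. Between the control vectors they differed by 3.72, which passed (adjusted p = 4.04e-06).

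The change of vector was also measured without Csnk2a1 in it. Between pcDNA4c Control and shRNA Control 14 of 20267 genes passed (0.0691%), 11 higher and 3 lower with pcDNA4c. Macrophage markers were among the 11. Mpeg1 had no count in shRNA Control and 149, 192 and 194 CPM in pcDNA4c Control, and Spp1 had means of 1.21 and 2015 CPM. Over the microglia and macrophage list the median was 3.43. Vector and cell content cannot be told apart in this contrast, and cell content was not tested. The difference between that contrast and the one with Csnk2a1 was tested as an interaction, in which 4 genes passed (0.0197%), all with a negative sign. Apoe, the lipid carrier that glia and macrophages secrete, was at 178, 246 and 412 CPM with the Csnk2a1 shRNA and at 75.2, 108 and 119 CPM with the Csnk2a1 vector (log2 -1.47, SE 0.44, adjusted p = 0.428). Between the control vectors it was higher with pcDNA4c by 3.42 (adjusted p = 0.00165), and the gap was -4.88 (SE 0.64; adjusted p = 0.00624). For genes such as mt-Nd5, mt-Nd4 and Gngt1, by contrast, the gap of 1.53, 1.56 and -0.94 did not pass (adjusted p = 0.361, 0.361 and 0.611), so a difference from the control vectors was not shown for them.

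**Figure D4:**
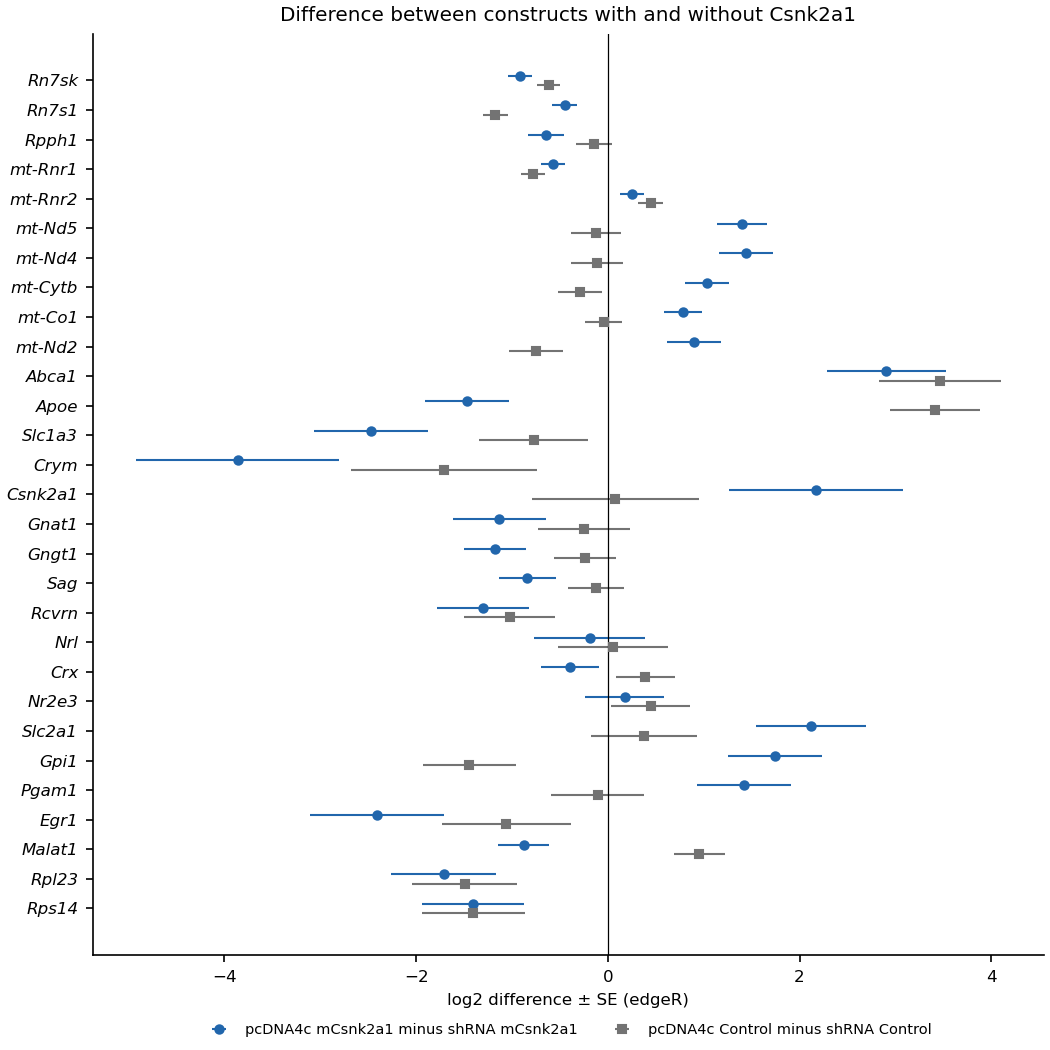
Log2 difference ± SE (horizontal axis) for 29 genes, with the Csnk2a1 constructs (blue circles) and with the control vectors (grey squares). Rn7sk, mt-Rnr1, Abca1 and Rps14 lie on the same side in both, while Apoe is at -1.47 with the constructs and 3.42 with the controls and Csnk2a1 at 2.17 and 0.08.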

How the data were processed

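The build mm10 and the tools kallisto 0.45.0 and edgeR 3.28 come from the submitters' processing notes. Settings and annotation release are not given in the sources used here, but the authors deposited expected counts (estimates rather than whole reads) of 52962 genes, and 99.9% of values above 0 were not whole (tolerance 1e-06). The authors' deposited transcript table holds TPM for 141196 transcripts. The authors' scaled signal table, in CPM units for 11 libraries without pcDNA4c mCsnk2a1 1, served for gene names and positions alone. GENCODE M21 holds 98.2% of the gene IDs, 99.5% of these at the same position.

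Estimated counts were rounded. All 12 libraries entered 1 quasi-likelihood fit (edgeR 4.0.16, R 4.3.3, 4 groups, filterByExpr with a minimum count of 10, TMM), which left 20267 genes. A check on simulated counts recovered only a minority of the differences put in, so not passing does not show that a gene is unchanged. A gene passed at an adjusted p (Benjamini-Hochberg) under 0.05. The SE was taken as |log2 difference| / sqrt(F) and restates the test. Bounds on folds use a floor of 3 counts over a group and cover counting error only, since PCR copies without molecular identifiers are not independent. Single measures were compared by exact permutation of 3 against 3 libraries. Alternatives were DESeq2 1.42.0, limma voom 3.58.1, other scaling, filters and fits, a replicate block and leaving out each library. Reading the list counts without pcDNA4c mCsnk2a1 1 and the fold bounds without single libraries was chosen after seeing the data.

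The members of the comparison and the 32 gene lists were chosen with earlier results of these data known. Genes are named if they passed without overlap and are not predicted genes, filled to 10 per direction by smallest p (given as values, not as changes), if they belong to a set of 20 genes of the series, or if they are among up to 4 members of smallest p in a list. Genes named in the text outside that rule were chosen after their values were seen; these are the 7SK partners, the 3 identical Gm genes, Mki67, Psap, Gm26917, Nat8l, the members of the mitochondrial and small structured RNA lists beyond the rule, Slc24a1, Pfkl, Pkm, Ldha, Gapdh, Ldhb, Fos, Junb and Glul. Some genes that the rule names are not reported here.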

Additional observations from a re-analysis of the deposited data

Results flagged for a closer look

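In 4 genes the difference between constructs differed from that between the control vectors by a test of the difference itself (edgeR interaction, adjusted over 20267 genes). For Apoe it was -4.88 on the log2 scale (adjusted p = 0.00624). For Spp1, the secreted phosphoprotein osteopontin, it was -16.26 (adjusted p = 0.00970), with no count in 5 of the 6 compared libraries, 7.69 CPM in shRNA mCsnk2a1 2 and a mean of 2015 CPM in pcDNA4c Control. For Psap, the precursor of the lysosomal saposins, it was -3.60 (adjusted p = 0.0446), with 95.9 to 106 CPM with the Csnk2a1 shRNA, 70.9 to 94.0 CPM with the Csnk2a1 vector, 57.6 to 95.3 CPM in shRNA Control and 635 to 810.45 CPM in pcDNA4c Control. For the noncoding gene Gm26917 it was -2.95 (adjusted p = 0.0446), with 739 to 1463 CPM, 662 to 1161 CPM, 690 to 865 CPM and 3120 to 8519 CPM in the same order. In these 4 genes the pcDNA4c Control libraries held the highest level of the 4 groups. Macrophage markers were also high in those libraries (list median of 3.43 between the control vectors), and cell content was not tested.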

How the results depend on the processing

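The number of genes that passed between vector and shRNA, 1 as reported, was 472 with DESeq2, 28 with limma voom, 153 without a low-count filter, 0 with the filter on the 6 compared libraries (986 at an unadjusted p under 0.05, edgeR) and 0 with those 6 alone (629 at an unadjusted p under 0.05, edgeR). Leaving out single libraries gave 0 to 4, and 0 came without pcDNA4c mCsnk2a1 3, shRNA mCsnk2a1 2 or shRNA mCsnk2a1 3 (1907 to 2147 at an unadjusted p under 0.05, edgeR). The 4 genes were Rn7sk and the 3 identical Gm genes without shRNA mCsnk2a1 1, and Rn7sk, mt-Nd5, mt-Nd4 and mt-Cytb without pcDNA4c mCsnk2a1 1. Same replicate numbers did not pair the samples (correlations of deviations -0.04 to 0.036). With the replicate number as a block, 4 genes passed over the 12 libraries, Rn7sk and the 3 identical Gm genes, and 1 over the 6 libraries, Nat8l (log2 -5.96, adjusted p = 0.0423), which had 2055 CPM in shRNA mCsnk2a1 1 and under 23 in the others.

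The interaction count, 4 as reported, was 209 with DESeq2, 137 without a low-count filter, 9 with the replicate block, 2 with 50 counts in 3 libraries, 2 with relative log expression scaling, 1 with the filter on the 6 libraries, 1 with limma voom, and 1 to 12 when single libraries were left out (12 without pcDNA4c mCsnk2a1 1, 1 without pcDNA4c mCsnk2a1 3). Apoe passed in all of these fits. The control vector count, 14 as reported, was 69 with DESeq2, 71 without a low-count filter and 9 with the filter on the 6 libraries. Its split of 11 higher and 3 lower was 12 and 0 with limma voom.

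Csnk2a1 kept its direction in 16 of 16 alternatives (log2 1.86 to 2.62) and passed in none. Of 1797 values for 114 single genes, 1684 kept direction and call, 72 gained and 7 (all Rn7sk) lost the call. The other 34 changed sign, or fell to 0 (Spp1 and C1qb without the only compared library that held counts). For Prox1 these were 0.0148 with 50 counts in 3 libraries, 0.0293 with DESeq2, 0.0206 with the filter on the 6 libraries, 0.0267 with library size alone, 0.0184 without a low-count filter, 0.0211 with the 6 libraries alone, 0.0295 with relative log expression scaling, 0.13 with the replicate block and -0.36 to 0.32 with libraries left out. The block also turned Arr3 (0.53) and, over 6 libraries, mt-Co2 (-0.084), as did limma voom (-0.48). With single libraries left out, values ran from -2.34 to 0.58 for Csnk2a2, -0.86 to 0.60 for Nrl, -0.21 to 0.58 for Nr2e3, -0.062 to 0.50 for Gnb1, -0.54 to 0.30 for Pde6b, -7.73 to 0.022 for Arr3, -6.21 to 0 for Spp1, -7.64 to 0 for C1qb, -5.73 to 6.06 for mt-Co2, -0.47 to 0.29 for mt-Co3, -0.52 to 0.041 for Hexim1, -0.96 to 0.74 for Cdk9 and -0.40 to 0.087 for Gm26917. The cause was not tested. Of 512 list medians, 462 moved by less than the spread between replicates. Under the 16 alternatives 17 of 32 medians kept their sign and 15 did not. Those of mitochondrially encoded genes (0.88 to 1.07), glycolysis (0.46 to 0.89), rod phototransduction (-0.87 to -0.35), Müller glia (-1.61 to -0.92) and ribosomal proteins (-0.70 to -0.37) kept it. Among those that did not were photoreceptor factors (-0.25 to 0.15), synapse genes (-0.12 to 0.32), p53 targets (-0.78 to 0.49), NF-kappaB targets (-0.90 to 0.89), pigment epithelium (-1.20 to 4.71), amacrine and horizontal cells (-0.81 to 0.21), small RNA processing (-0.33 to 0.36), chaperones (-0.03 to 0.40), lysosome (-0.06 to 0.36), Wnt targets (-0.13 to 0.37) and the stress response (-0.58 to 0.07). Amplified RNA of 50 to 100 cells limits single genes of low count.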
